A study of Homo sapiens with 74 samples.

Results

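Class I antigen presentation was followed through 9 genes: the heavy-chain genes HLA-B, HLA-C, HLA-E, HLA-F and HLA-G, the light-chain gene B2M, and the peptide-loading genes TAP1, TAP2 and TAPBP. They were taken by symbol from the 28131 genes of the deposited count tables, and all 9 were found. The series is about the part of the DOT1L complex in transcription, and 13 of its 74 samples are RNA-seq libraries of polyadenylated RNA from K562 and HEL, both established human leukaemia lines with erythroid features. In K562 the groups were a wild-type control, a DOT1L knockout (DOT1L-/-, DOT1L KO) with 3 libraries and a knockout of ENL (ENL-/-, ENL KO), whose gene symbol is MLLT1, with 3 libraries. In HEL they were 2 control libraries and 2 libraries with DOT1L knockdown (DOT1L KD). Replicates 2 and 3 of the K562 control did not differ in any gene of the deposited table, so they were taken as 1 library, which left 2 control libraries in K562. The labels name no separate cultures and no clones, so p-values measure only the spread between these libraries, which may be technical. The means of knockdown is not given in the labels.

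DOT1L is the methyltransferase of lysine 79 of histone H3, and ENL, a reader of acetylated histones, binds DOT1L. A class I molecule consists of a heavy chain paired with β2-microglobulin, the product of B2M, and a peptide. TAP1 and TAP2 form the transporter that brings peptides into the endoplasmic reticulum, and tapasin, the product of TAPBP, holds the empty heavy chain at the transporter. HLA-B and HLA-C present peptides to cytotoxic T cells, HLA-C and HLA-E also engage receptors of natural killer cells, and HLA-F and HLA-G are heavy chains of narrower expression. K562 is known for very low class I at its surface and serves as a standard target of natural killer cells.

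K562 libraries held 15404944 to 29236703 counted fragments, and HEL libraries held 12151495 to 12811688 counted reads. The targeted gene checked the labels only in part. By edgeR's test DOT1L mRNA fell by 0.53 on the log2 scale after its knockout (SE 0.057, adjusted p = 4.09e-06) and by 1.64 after its knockdown (SE 0.064, adjusted p = 2.22e-28). MLLT1 fell by 0.48 where ENL was knocked out (SE 0.051, adjusted p = 5.26e-06). Transcripts were thus still counted in both knockouts, and whether the counts cover the deleted part is not stated. Erythroid markers (GATA1, TAL1, KLF1, HBG1, HBG2 and TFRC) were counted in every group.

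How the members were counted bears on every level given here. Their 8 genes on chromosome 6 lie in the major histocompatibility complex, which the hg38 annotation repeats on alternative contigs. The deposited tables list HLA-B on 5 such contigs besides chromosome 6, HLA-C, HLA-E and HLA-F on 6, HLA-G, TAP1 and TAP2 on 7 and TAPBP on 4, while B2M on chromosome 15 is listed on 1. The treatment of reads that map to several places is not given in the sources used here. Levels in CPM are counts scaled to the effective library total, by TMM. The shares given next rest instead on raw library totals. They use the mean over all deposited columns of a line, the repeated K562 control included. At 28 to 34 Mb of chromosome 6, 246 genes are listed on at least 1 alternative contig. Of these, 29.3% reached 1 CPM in K562 and 8.13% in HEL. Among the 32 genes of the same stretch on no such contig, 53.1% did in K562 and 56.3% in HEL. Outside this stretch, 21.9% of 1002 genes with an alternative contig reached 1 CPM in K562 and 9.38% in HEL, whereas 45.4% of 26851 genes without one did in K562. A low or zero count of a chromosome 6 member therefore cannot be read as low expression, and the part of multiple mapping in it was not tested. Within a cell line every library has the same gene models, so the groups are compared within a line.

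HLA-C (GRCh38 chr6:31268749-31272136, minus strand) was the member with the largest fall. The K562 controls held 64 and 63 fragments, or 2.98 CPM in each. The DOT1L KO libraries held 16, 21 and 19 fragments (0.727, 0.709 and 0.899 CPM) and the ENL KO libraries 24, 13 and 6 (1.16, 0.633 and 0.391 CPM). Every knockout library lay below both controls, and the 2 knockouts overlapped. The mean was 2.98 ± 0.0027 CPM (SD, n = 2) in control, 0.779 ± 0.10 (n = 3) in the DOT1L KO and 0.728 ± 0.39 (n = 3) in the ENL KO. HLA-C fell by 1.94 on the log2 scale in the DOT1L KO (SE 0.29, edgeR quasi-likelihood adjusted p = 8.31e-05) and by 1.97 in the ENL KO (SE 0.30, adjusted p = 0.00016). DOT1L KO and ENL KO differed by 0.03 (SE 0.35, adjusted p = 0.945). The count ratio of the DOT1L KO to control was 0.259, with an exact 95% interval of 0.185 to 0.357 that covers counting error only. Both knockouts are set against the same 2 control libraries, so these falls are not independent of each other.

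HLA-B (chr6:31353866-31357245, minus strand) stood near the counting floor in K562. Its counts were 4 and 6 in control, whereas DOT1L KO libraries held 12, 9 and 14 and ENL KO libraries 2, 2 and 0. A count of 0 allows up to 3 counts, and 3 counts were worth 0.101 to 0.244 CPM depending on the library. Its values did not overlap between groups: all DOT1L KO libraries were above the controls and all ENL KO libraries below. Neither difference from control passed the threshold, with a count ratio of 2.05 for DOT1L KO (exact 95% interval 0.995 to 4.65, adjusted p = 0.138) and a count ratio of 0.301 in the ENL KO (exact 95% interval 0.069 to 1.05, adjusted p = 0.139). HLA-B passed the filter on low counts only through the DOT1L KO libraries, 2 of which reached 10 counts, so its difference from the ENL KO is a description with no test. That count ratio of the DOT1L KO to the ENL KO was 6.81 (exact 95% interval 2.43 to 26.4, counting error only). Without DOT1L KO replicate 3 or replicate 1 it was no longer tested.

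The stretches before the starts of HLA-B, HLA-C and B2M are shown because HLA-C fell and B2M rose in the DOT1L KO, while HLA-B, with a promoter much like that of HLA-C, passed no threshold there. They are RefSeq sequence of GRCh38.p14, 5′ to 3′ on the strand of the gene, up to 250 bases before the RefSeq start, and without the bases that the deposited tables count as exon. Capitals mark matches, on either strand, to GAANNGAAA (letters like those of an interferon response element), the kappa B motif (GGG, any 2 bases, then TTCCC) and CCAAT (a Y box).
HLA-B: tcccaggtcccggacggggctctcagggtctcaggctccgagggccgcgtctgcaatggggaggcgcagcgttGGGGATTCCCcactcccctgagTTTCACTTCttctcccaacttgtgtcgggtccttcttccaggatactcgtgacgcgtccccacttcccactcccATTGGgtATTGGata
HLA-C: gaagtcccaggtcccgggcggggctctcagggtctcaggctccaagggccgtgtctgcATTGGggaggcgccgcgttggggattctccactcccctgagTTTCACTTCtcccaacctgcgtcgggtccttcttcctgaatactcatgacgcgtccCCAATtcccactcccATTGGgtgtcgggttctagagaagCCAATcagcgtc
B2M: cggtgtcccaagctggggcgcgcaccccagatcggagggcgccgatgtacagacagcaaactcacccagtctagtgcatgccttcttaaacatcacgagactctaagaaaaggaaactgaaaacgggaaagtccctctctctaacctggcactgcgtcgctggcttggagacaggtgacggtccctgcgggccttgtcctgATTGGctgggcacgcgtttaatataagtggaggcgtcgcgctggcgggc
They lie at chr6:31357246-31357429 (minus strand), chr6:31272137-31272342 (minus strand) and chr15:44711267-44711516 (plus strand). HLA-B and HLA-C were alike: over the 250-base windows 226 of 254 aligned positions were identical (89.0%), and both hold GAANNGAAA as TTTCACTTC. The kappa B motif was matched in HLA-B and not in HLA-C. B2M held no match to GAANNGAAA or to the kappa B motif as written here and had 1 CCAAT match. Its stretch does hold gaaactgaaa, which is 1 base longer than GAANNGAAA. Other spellings of these motifs were not searched, so neither element can be called absent from B2M. Of 35116 promoters of the same length in the RefSeq table, 6.56% hold GAANNGAAA, 1.97% hold the kappa B motif and 32.0% hold CCAAT. A match describes letters only and shows no binding. RefSeq promoters were found for 8 of the 9 members, and none was found for HLA-E.

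HLA-E (chr6:30489509-30494194, plus strand) did not differ beyond its spread. It held 23 and 18 fragments in the K562 controls, against 28, 22 and 13 after DOT1L knockout and 34, 17 and 20 after ENL knockout, and the 3 groups overlapped. The log2 fold change was -0.14 in the DOT1L KO (SE 0.38, adjusted p = 0.780) and 0.38 in the ENL KO (SE 0.37, adjusted p = 0.444). HEL libraries held 3 and 5 reads in control and 3 and 2 in the DOT1L KD. HLA-F (chr6:29723340-29727296, plus strand) was listed at 0 in all 8 K562 libraries and HLA-G (chr6:29826979-29831122, plus strand) at 0 in all 12 libraries.

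B2M (chr15:44711517-44718877, plus strand) had the highest counts of the members in K562 and moved in opposite directions in the 2 knockouts. It stood at 51.4 and 53.7 CPM in the controls, at 66.4, 78.2 and 64.6 CPM in the DOT1L KO and at 38.9, 33.4 and 39.7 CPM in the ENL KO. The 3 groups did not overlap. On the log2 scale B2M rose by 0.41 in the DOT1L KO (SE 0.094, adjusted p = 0.00239), that is 1.33-fold, and fell by 0.49 on the log2 scale in the ENL KO (SE 0.096, adjusted p = 0.00101). Between the DOT1L KO and the ENL KO it differed by 0.91 (SE 0.086, adjusted p = 7.44e-07).

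The peptide-loading genes changed less clearly. TAP2 (chr6:32821833-32838823, minus strand) stood at 3.12 and 2.03 CPM in the K562 controls, at 2.00, 1.55 and 1.56 CPM in the DOT1L KO and at 1.79, 1.56 and 1.69 CPM in the ENL KO. All 6 knockout libraries were below the lower control, by little. TAP2 fell in the DOT1L KO by 0.60 on the log2 scale (SE 0.23, adjusted p = 0.0426), and the value in the ENL KO was -0.62 (SE 0.24, adjusted p = 0.0541). In the ENL KO it passed without a filter (adjusted p = 0.0498), with a stricter filter (adjusted p = 0.0460) and without control replicate 2 (-0.89, adjusted p = 0.0212), and its value was -0.28 without control replicate 1. The call in the DOT1L KO rested on single libraries: it was lost without control replicate 1, where the fold change was -0.26 (adjusted p = 0.491), and without DOT1L KO replicate 2 (-0.53), DOT1L KO replicate 3 (-0.55) or ENL KO replicate 2 (-0.61). DESeq2 gave -0.59 with an adjusted p of 0.114.

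TAP1 (chr6:32845209-32853971, minus strand) held 15 and 16 fragments in the K562 controls, against 10, 4 and 11 after DOT1L knockout and 9, 5 and 8 after ENL knockout. Both knockouts lay below the controls without overlap, yet neither passed the threshold (log2 fold change -1.05, SE 0.48, adjusted p = 0.0842 in the DOT1L KO; -0.89, SE 0.49, adjusted p = 0.172 in the ENL KO). TAPBP (chr6:33299695-33314387, minus strand) was the best counted member of the complex on chromosome 6, with 182 to 367 fragments a library. It stood at 13.0 ± 2.1 CPM (n = 2) in control, 12.3 ± 0.65 (n = 3) in the DOT1L KO and 11.3 ± 0.68 (n = 3) in the ENL KO, with overlapping groups. Its log2 fold changes of -0.08 (SE 0.11, adjusted p = 0.605) and -0.21 (SE 0.12, adjusted p = 0.177) were within the spread.

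**Figure D1:**
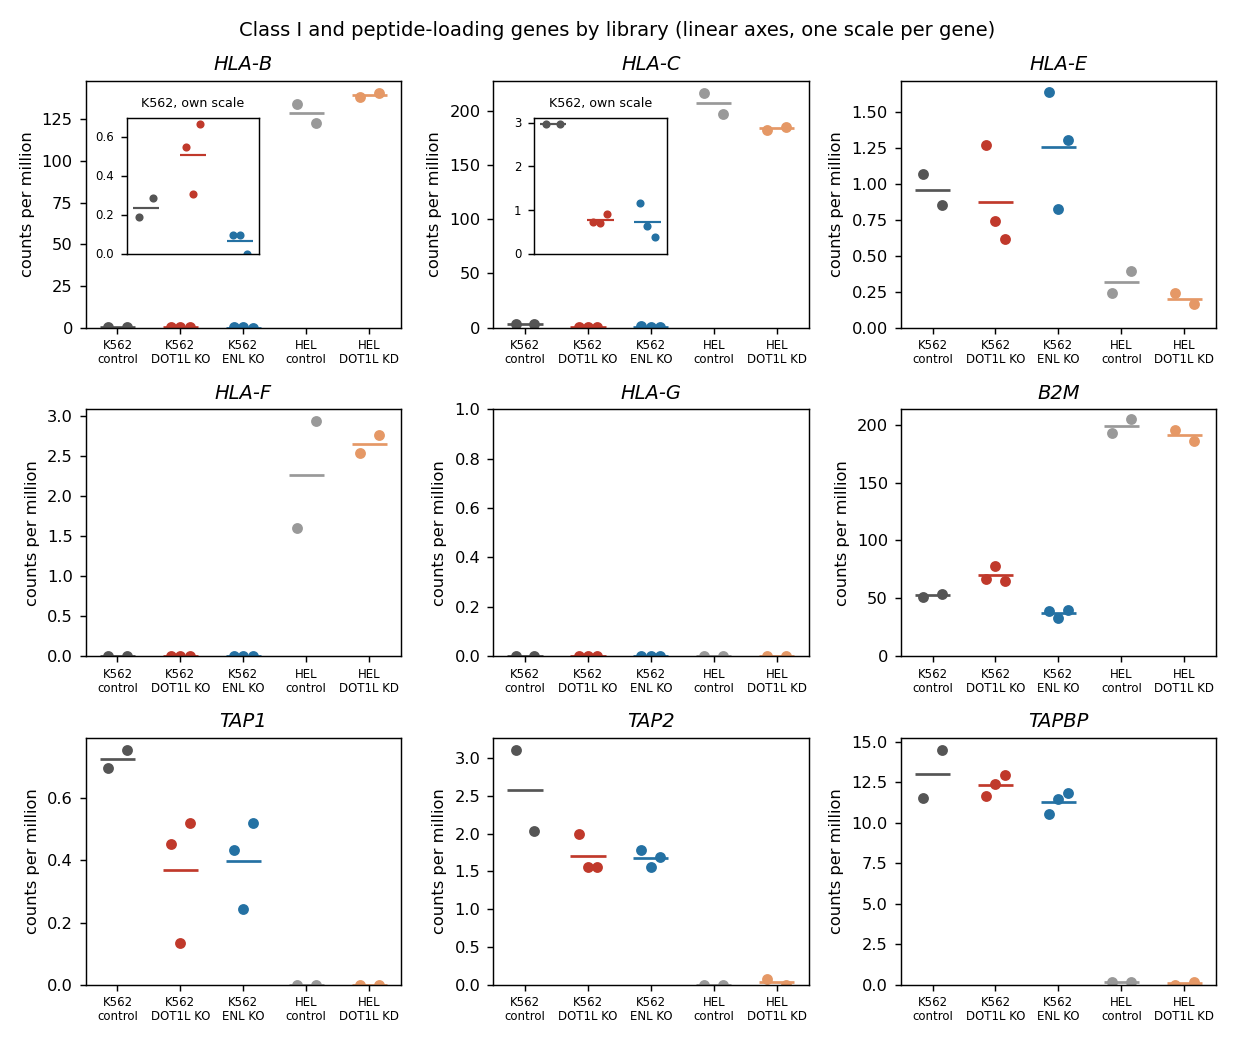
CPM (vertical, linear from 0, one scale per gene) of each member in each library (points) with the group mean (line), for 5 groups; insets repeat the K562 libraries of HLA-B and HLA-C on their own scale. HLA-C stood at 2.98 CPM in both K562 controls and at or below 1.16 CPM in all 6 knockout libraries, B2M was above both controls in the DOT1L KO and below them in the ENL KO, and HLA-G was at 0 throughout.

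Of the 9 members, 7 passed the filter on low counts in K562. In the DOT1L KO 1 of them was called higher (B2M) and 2 lower (HLA-C and TAP2), where 51.1% of all 14301 genes tested were called, 26.9% higher and 24.2% lower. In the ENL KO none was called higher and 2 were called lower (HLA-C and B2M), against 41.0% of all genes called, 18.8% higher and 22.2% lower. Between the knockouts 2 were called, both higher in the DOT1L KO (B2M and HLA-B, the latter tested only because of its DOT1L KO libraries), against 60.2% of all genes called, 31.8% higher and 28.3% lower. Counts out of 7 are too small to be read against these shares, which are given as background only. Groups of the DOT1L KO and control did not overlap in 5 members, with HLA-B and B2M higher and HLA-C, TAP1 and TAP2 lower; of all genes 35.2% did so with higher values and 32.8% with lower ones. Groups of the ENL KO and control did not overlap in 5 members, all lower (HLA-B, HLA-C, B2M, TAP1 and TAP2), against 30.8% of all genes lower and 28.8% higher. DOT1L KO and ENL KO did not overlap in HLA-B and B2M, both higher in the former, against 33.5% of all genes higher and 29.8% lower.

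**Figure D2:**
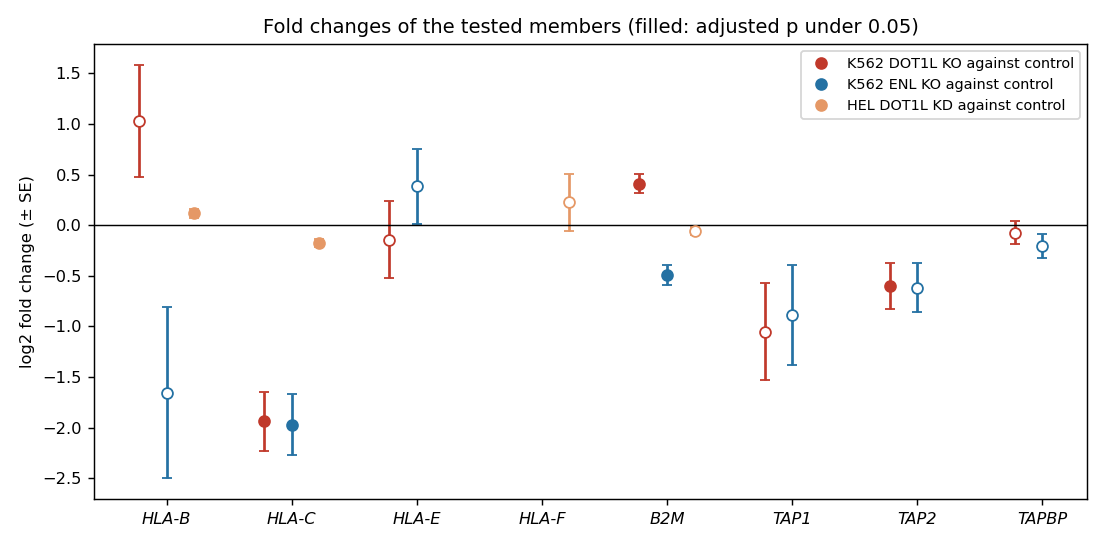
Log2 fold change (vertical, with its SE as bar) of each tested member against the control of its line, filled where the adjusted p is under 0.05. HLA-C is the lowest filled point in both knockouts of K562, at -1.94 and -1.97, and at -0.17 in HEL, and B2M lies on opposite sides of 0 in the 2 knockouts.

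In HEL, 4 members passed the filter. HLA-C stood at 217 and 197 CPM in control and at 182 and 185 CPM in the DOT1L KD, so both KD libraries were lower. It fell by 0.17 on the log2 scale (SE 0.039, adjusted p = 0.000197). HLA-B stood at 134 and 123 CPM in control and at 138 and 141 CPM in the KD. It rose by 0.12 (SE 0.044, adjusted p = 0.0196), a difference that was not past the threshold without control replicate 2 (0.05), without KD replicate 2 (0.10) or with DESeq2 (0.11, adjusted p = 0.189). B2M stood at 193 and 205 CPM in control and at 196 and 186 CPM in the KD, and its log2 fold change of -0.06 (SE 0.038, adjusted p = 0.202) did not pass. HLA-F held 20 and 37 reads in control and 32 and 34 in the KD (log2 fold change 0.23, SE 0.28, adjusted p = 0.517). TAPBP held at most 2 reads in a HEL library, TAP2 at most 1 and TAP1 was listed at 0 in all 4. Thus 1 of 4 tested members was called higher and 1 lower, where 55.0% of the 12635 genes tested were called, 27.0% higher and the rest lower. The groups did not overlap in HLA-B (higher) and HLA-C (lower), against 38.7% of all genes higher and 37.2% lower.

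The response of HLA-C differed between the lines. In a joint fit of 9 libraries, the change in the HEL DOT1L KD was higher than that in the K562 DOT1L KO by 1.79 on the log2 scale (SE 0.20, adjusted p = 3.45e-07). For B2M it was lower by -0.45 (SE 0.10, adjusted p = 0.00105), and for HLA-B the difference of -0.88 (SE 0.46, adjusted p = 0.139) did not pass. In this fit 38.9% of 15367 genes were called, 19.8% higher and 19.1% lower. Cell line, knockout against knockdown, and fragment against read counting go together here and cannot be told apart.

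Levels were compared between genes per kilobase of exon on the main chromosome. In the K562 controls B2M stood at 31.4 ± 0.97 CPM per kb (n = 2), TAPBP at 3.19 ± 0.52, HLA-C at 1.88 ± 0.0017, TAP2 at 0.414 ± 0.12, HLA-E at 0.377 ± 0.061, TAP1 at 0.231 ± 0.013 and HLA-B at 0.146 ± 0.043. TAP2 and HLA-E did not differ beyond their spread. In the HEL controls the order was HLA-C at 131 ± 8.6 CPM per kb (n = 2), B2M at 119 ± 4.9, HLA-B at 79.8 ± 5.0 and HLA-F at 1.34 ± 0.56. HLA-C and B2M lay close, and in the KD they overlapped. The 2 tables were scaled separately, so no test was made of a level between the lines.

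The neighbours of the chromosome 6 members were shifted down in the DOT1L KO, with a wide spread (quartiles -0.61 and -0.05 on the log2 scale). At 28 to 34 Mb 97 other genes were tested, of which 4 were called higher and 38 lower (39.2%), with a median log2 fold change of -0.31, where the median of all genes was 0.01. The 19 genes of the stretch that are on no alternative contig gave a median of -0.33, with 1 higher and 11 lower. Per library, the median deviation of the 103 genes from the mean of the controls was -0.24, -0.28 and -0.28 after DOT1L knockout. After ENL knockout it was 0.12, -0.05 and -0.01. The 2 controls were set against each other, so their 0.09 and -0.09 are 1 difference with its sign turned. The shift was thus present in each DOT1L KO library. It was known from earlier results of these data when the stretch was chosen.

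The shift reached well beyond the complex. All 8 bins of 5 Mb from 0 to 40 Mb had medians between -0.51 and -0.28, and they ranked between 2 and 15 from the lowest of 464 bins of the genome. Over 0 to 40 Mb 300 genes were tested, with 23 higher, 144 lower and a median of -0.35. From 40 to 60 Mb the median was 0.06, and on the long arm -0.00. The ENL KO showed no such shift at 28 to 34 Mb, with 9 neighbours higher, 6 lower and a median of 0.07. Neither did the HEL KD, with 6 of 37 higher, 5 lower and a median of -0.03. The part of this shift in the values of the members was not tested.

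**Figure D3:**
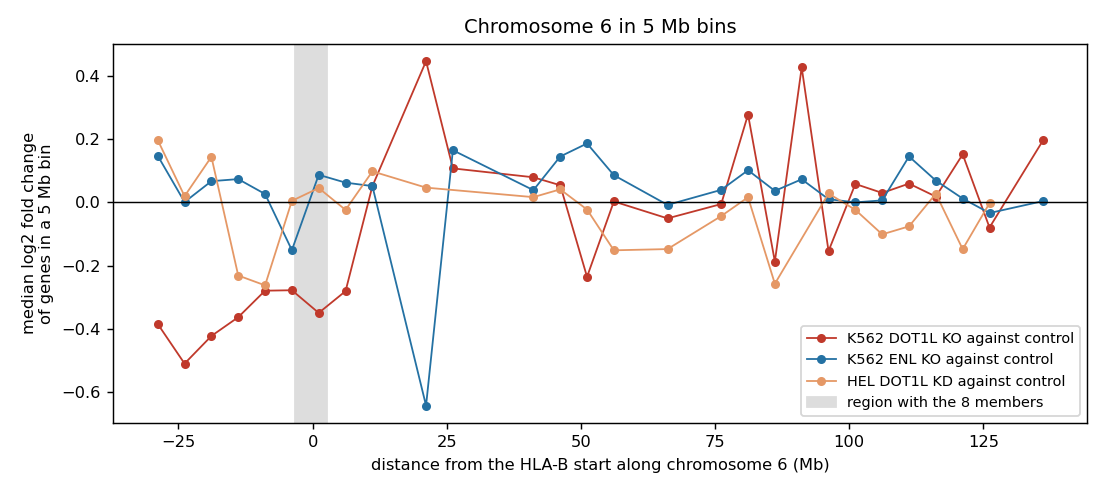
Median log2 fold change of the genes in each 5 Mb bin (vertical) by distance of the bin centre from the HLA-B start along chromosome 6 (horizontal, Mb), for 3 comparisons; the grey band is the stretch with the 8 members. In the DOT1L KO the 8 bins from the chromosome end to beyond the band lie between -0.51 and -0.28, and the later bins scatter on both sides of 0.

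Set against these neighbours, the members took different places in the range, some of them uncertain. Only 1 of the 97 neighbours lay below HLA-C in the DOT1L KO, and only 1 did in the ENL KO, where the neighbours' median was 0.07. TAP2 at -0.60 (SE 0.23) and TAP1 at -1.05 (SE 0.48) lay in the lower part of the neighbours' range, with 25 and 7 of them lower still. With 1 library left out TAP2 ran from -0.88 to -0.26. HLA-E at -0.14 (SE 0.38) and TAPBP at -0.08 (SE 0.11) lay above the neighbours' median of -0.31. HLA-E ran from -0.48 to 0.030 with 1 library left out, to either side of that median. HLA-B at 1.03 (SE 0.55) lay above 95 of the neighbours, with at most 14 counts a library in K562. The genes nearest to HLA-B and HLA-C with at least 5 CPM had values near that median. MICA, a stress-induced ligand of natural killer cells, fell by 0.28 (SE 0.081, edgeR adjusted p = 0.0116) and CCHCR1 had -0.25 (SE 0.10, adjusted p = 0.0634). MICB, farther from HLA-B than MICA, fell by 0.97 (SE 0.13, adjusted p = 4.7e-05), so small values did not hold for all genes close by. The call of MICA was lost without either control (adjusted p = 0.0588 without replicate 1 and 0.0592 without replicate 2). Around the TAP genes BRD2, 115 kb from TAP1, fell by 0.90 (SE 0.13, adjusted p = 5.11e-05). PBX2, 655 kb from TAP1, had 0.06 (SE 0.11, adjusted p = 0.688). Beside HLA-E, GNL1 fell by 0.53 (SE 0.14, adjusted p = 0.00687; 0.0574 without control replicate 1) and HCG18 had 0.02 (adjusted p = 0.890). PPP1R11, 340 kb from HLA-F and 236 kb from HLA-G, fell by 1.50 (SE 0.14, adjusted p = 8.69e-07). TRIM27, 799 kb from HLA-F and 903 kb from HLA-G, had -0.05 (adjusted p = 0.796). Genes below 5 CPM were passed over, so the genes named here need not be adjacent to the members. TAPBP was flanked by WDR46 at -0.09 (adjusted p = 0.686) and DAXX at -0.24 (adjusted p = 0.175). These positions within the neighbours' range are a description with no test.

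B2M had a shifted surrounding of its own, in the other knockout. In the ENL KO all 17 bins of chromosome 15 had medians between -0.68 and -0.28, and 316 of its 457 tested genes were called lower (69.1%) and 12 higher, with a median of -0.52. B2M at -0.49 lay at that median. In its own bin at 40 to 45 Mb 67 of the 82 other genes were lower, none was higher, and the median was -0.50. Each ENL KO library showed it, with median deviations from control of -0.49, -0.50 and -0.48. Its nearest neighbours were both lower: SORD fell by 0.88 (SE 0.073, adjusted p = 5.62e-07) and SPG11 by 0.20 (SE 0.071, adjusted p = 0.039). The call of SPG11 was lost without control replicate 1 (adjusted p = 0.0689), control replicate 2 (0.254), DOT1L KO replicate 3 (0.0502), ENL KO replicate 1 (0.101) or ENL KO replicate 2 (0.105), where its value lay between -0.24 and -0.15.

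In the DOT1L KO the same bin had a median of 0.08 without B2M, and chromosome 15 as a whole 0.01. B2M at 0.41 lay above both, as did SPG11 at 0.32 (adjusted p = 0.00206) and SORD at 0.29 (adjusted p = 0.00404; 0.0573 without control replicate 2). The fall of B2M in the ENL KO was therefore of the size of the change of its whole chromosome. Its rise in the DOT1L KO was larger than that of its bin, but not than that of every bin. The bin before it, at 35 to 40 Mb with 11 tested genes, had a median of 0.43, and the highest bin of the chromosome had 0.50. The part of a chromosome-wide change in the B2M values was not tested. Chromosome 15 was examined after the values of B2M were seen.

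**Figure D4:**
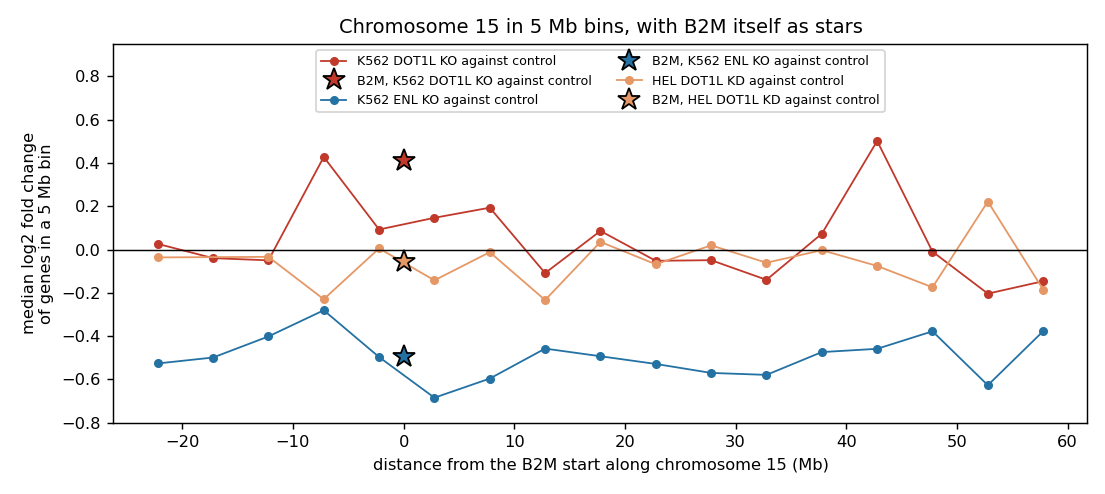
Median log2 fold change of the genes in each 5 Mb bin (vertical) by distance of the bin centre from the B2M start along chromosome 15 (horizontal, Mb), with the value of B2M itself as stars, for 3 comparisons. In the ENL KO every bin is between -0.68 and -0.28 and the B2M star at -0.49 lies among them. In the DOT1L KO the star at 0.41 lies above its own bin at 0.09 and slightly below the bin before it at 0.43.

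Class I transcription is driven by NLRC5, which acts with the RFX and NFY factors on the promoter, and by interferon factors such as IRF1. NLRC5 held 1 and 3 fragments in control, against 31, 41 and 38 after DOT1L knockout and 7, 3 and 2 after ENL knockout, a count ratio of the DOT1L KO to control of 16.1 (exact 95% interval 6.12 to 60.2, counting error only). It passed the filter on low counts only through the DOT1L KO libraries, so its K562 values are a description with no test. In HEL it was well counted at 140 and 132 CPM in control and 181 and 179 CPM in the KD, a rise of 0.40 on the log2 scale (SE 0.040, adjusted p = 2.38e-12). IRF1 stood at 8.74 and 9.27 CPM in the K562 controls, at 24.3, 22.8 and 22.1 CPM in the DOT1L KO and at 6.38, 6.13 and 5.80 CPM in the ENL KO. It rose by 1.36 in the DOT1L KO (SE 0.097, adjusted p = 7.51e-08), fell by 0.56 in the ENL KO (SE 0.11, adjusted p = 0.00117) and fell by 0.22 in HEL (SE 0.055, adjusted p = 0.00055).

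The shares of all genes called, against which the counts of the following lists are to be read, were 26.9% higher and 24.2% lower in the DOT1L KO, 18.8% higher and 22.2% lower in the ENL KO, and 55.0% in either direction in HEL, 27.0% higher. Of 16 tested genes on a list of transcription factors of class I genes, 6 were called higher, NLRC5 among them, and 2 fell in the DOT1L KO, 4 rose and 4 fell in the ENL KO, and 3 rose and 6 fell in HEL, with medians of 0.05, 0.03 and -0.06 beside 0.01, 0.00 and 0.01 over all genes. Without NLRC5 the counts in the DOT1L KO were 5 and 2 of 15. RFX5 fell by 0.50 in the ENL KO (adjusted p = 6.71e-05) and by 0.73 in HEL (adjusted p = 1.34e-18). STAT3 fell by 0.53 in the DOT1L KO (adjusted p = 2.3e-06).

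The immunoproteasome cleaves proteins into the peptides that class I molecules carry. The list holds its subunits and also proteasome activators. Of 5 tested genes, 4 rose and none fell in the DOT1L KO (PSMB8, PSMB10, PSME2 and PSME3), 1 rose and 1 fell in the ENL KO, and 2 rose in HEL. PSME3, an activator and not an immunoproteasome subunit, rose by 0.15 in the DOT1L KO and by 0.28 in the ENL KO. The median was 0.32 in the DOT1L KO. With 5 genes, 1 gene is 20.0% of the list. Of the 4 rises, 3 rested on single libraries: without control replicate 2 the calls of PSMB8 (0.83, adjusted p = 0.0939), PSMB10 (0.34, adjusted p = 0.106) and PSME3 (0.16, adjusted p = 0.0759) were lost, and that of PSME3 also without control replicate 1 (0.140) or DOT1L KO replicate 2 (0.0568) and without a filter (0.0900). PSMB8, a catalytic subunit whose gene lies beside TAP1 and is listed on 7 alternative contigs, stood at 0.976 and 0.709 CPM in the K562 controls, at 1.77, 1.52 and 1.99 CPM in the DOT1L KO and held 4, 2 and 1 fragments in the ENL KO. It rose by 1.04 in the DOT1L KO (SE 0.29, adjusted p = 0.00818), against the direction of its stretch of chromosome 6, and its count ratio in the ENL KO was 0.147 (exact 95% interval 0.055 to 0.334, adjusted p = 0.000543). PSMB10 rose by 0.41 (adjusted p = 0.0116) and PSME2 by 0.32 (adjusted p = 0.00122) in the DOT1L KO. PSMB9 was not tested.

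Of the 10 loading chaperones and trimming enzymes, 3 rose and 3 fell in the DOT1L KO, 1 rose and 4 fell in the ENL KO, and 2 rose and 4 fell in HEL, in the DOT1L KO 30.0% in each direction. TAPBPL, a tapasin homologue that edits peptides outside the loading complex, stood at 0.790 and 0.946 CPM in control and at 3.32, 4.02 and 4.02 CPM in the DOT1L KO. It rose by 2.12 (SE 0.22, adjusted p = 3.64e-06), and in HEL by 0.71 (SE 0.18, adjusted p = 0.000702). The HEL call was lost without KD replicate 2 (0.49, adjusted p = 0.067). CANX, a lectin chaperone of the heavy chain, fell by 0.33 in the DOT1L KO (adjusted p = 0.00015), and CALR, its soluble counterpart, had -0.03 (adjusted p = 0.796). HSPA5, the chief chaperone of the endoplasmic reticulum, fell by 0.53 in both knockouts (adjusted p = 1.19e-06 and 2.14e-06), which share their controls. PDIA6, another disulphide isomerase, fell by 0.49 in the DOT1L KO (adjusted p = 1.07e-05). PDIA3, the disulphide isomerase of the loading complex, rose by 0.16 in the DOT1L KO (adjusted p = 0.0186) and fell by 0.56 in the ENL KO (adjusted p = 1.03e-06), and its gene, like B2M, lies on chromosome 15. The rise of PDIA3 in the DOT1L KO was lost without control replicate 1 (0.13, adjusted p = 0.145), control replicate 2 (0.17, adjusted p = 0.0610) or DOT1L KO replicate 2 (0.14, adjusted p = 0.0509), and without a filter (0.13, adjusted p = 0.0773).

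Of 10 tested genes of class I-like molecules, RAET1G and ULBP3 passed the filter on low counts only through the DOT1L KO libraries. Of the other 8, 4 rose and 3 fell in the DOT1L KO, with a median of 0.29, and none rose and 6 fell in the ENL KO, with a median of -0.89. PROCR, the endothelial protein C receptor, stood at 5.21 and 5.91 CPM in control, at 22.4, 21.8 and 21.1 CPM in the DOT1L KO and at 2.03, 1.56 and 1.89 CPM in the ENL KO, a rise of 1.97 (SE 0.11, adjusted p = 9.07e-09) and a fall by 1.61 (SE 0.15, adjusted p = 2.14e-06). ULBP2, a ligand of the natural killer receptor NKG2D, rose by 1.25 in the DOT1L KO (adjusted p = 3.58e-06) and fell by 1.03 in the ENL KO (adjusted p = 0.000118). MICB, another such ligand, whose gene lies in the shifted stretch of chromosome 6, fell by 0.97 in the DOT1L KO (adjusted p = 4.7e-05) and by 0.70 in the ENL KO (adjusted p = 0.00105). MR1, which presents vitamin metabolites, rose by 0.58 in the DOT1L KO (adjusted p = 6.17e-05) and by 0.39 in HEL (adjusted p = 3.75e-08). FCGRT, the heavy chain of the neonatal Fc receptor, fell by 0.34 in HEL (adjusted p = 1.58e-07).

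Of 13 class II genes, only the invariant chain gene CD74 was tested in K562. It held 5 and 9 fragments in control, against 271, 350 and 281 after DOT1L knockout and 3, 5 and 4 after ENL knockout, a count ratio of the DOT1L KO to control of 37.8 (exact 95% interval 22.4 to 69.4, counting error only). CD74 too passed the filter only through the DOT1L KO libraries, so these values are a description with no test. Among 7 interferon receptor and kinase genes, 1 rose and 2 fell in the DOT1L KO: IFNGR1 rose by 0.51 (adjusted p = 0.000368), IFNGR2 fell by 0.90 (adjusted p = 0.00109) and JAK1 fell by 0.28 (adjusted p = 0.00762; 0.149 without control replicate 2). In HEL JAK1 rose by 0.23 (adjusted p = 2.41e-09) and JAK2 fell by 0.64 (adjusted p = 8.67e-26). Of 12 genes of class I trafficking and turnover, 1 rose (8.33%) and 5 fell (41.7%) in the DOT1L KO, 4 rose (33.3%) and none fell in the ENL KO, and 4 rose and 1 fell in HEL. SUSD6, a brake on surface class I, fell by 0.60 in the DOT1L KO (adjusted p = 3.24e-06) and rose by 0.47 in the ENL KO (adjusted p = 4.36e-05) and by 0.36 in HEL (adjusted p = 1.71e-07). TMEM127, which acts with SUSD6, rose by 0.31 in the DOT1L KO (adjusted p = 0.00108) and by 0.36 in the ENL KO (adjusted p = 0.000513). SPPL3, an intramembrane protease, fell by 0.30 in the DOT1L KO (adjusted p = 0.00427; 0.0581 without control replicate 2) and rose by 0.32 in HEL (adjusted p = 0.000262).

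**Figure D5:**
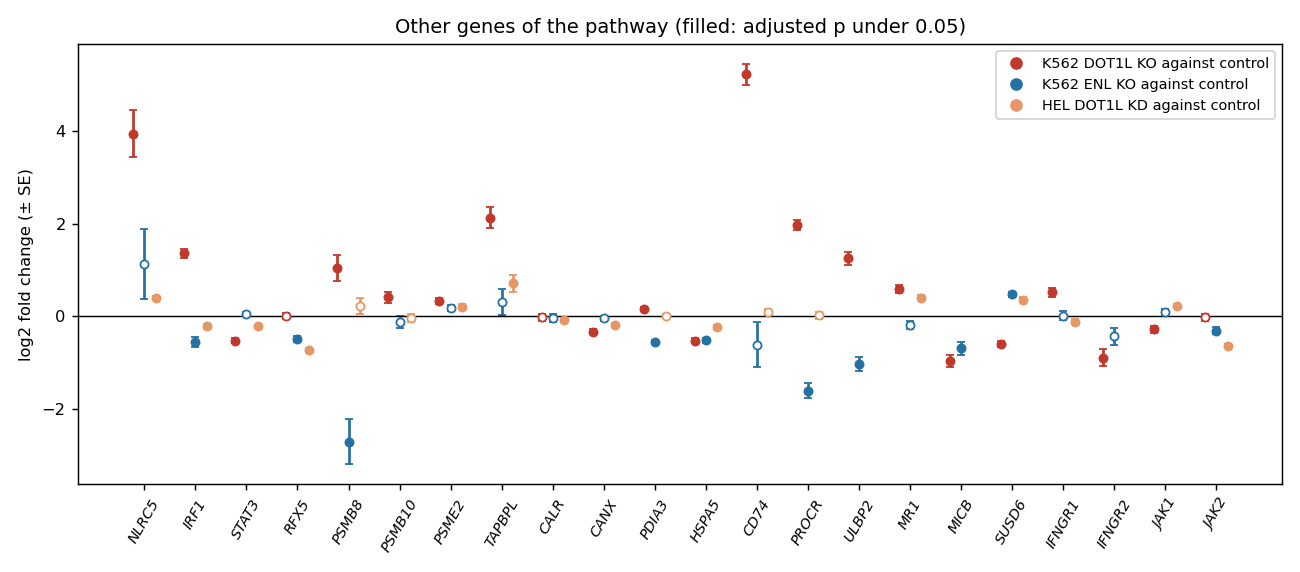
Log2 fold change (vertical, with its SE as bar) of other genes of the pathway against the control of their line, filled where the adjusted p is under 0.05. NLRC5, IRF1, PSMB8, TAPBPL, CD74, PROCR and ULBP2 lie above 0 in the K562 DOT1L KO, and PSMB8, PROCR and ULBP2 lie below 0 in the ENL KO. NLRC5 and CD74 passed the filter on low counts only through the DOT1L KO libraries. Their filled points in K562 are therefore a description with no test.

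Markers of cell types differed between the groups. The 6 erythroid markers summed to 5078 to 5471 CPM in control, 6172 to 6611 CPM after DOT1L knockout and 5410 to 5539 CPM after ENL knockout, and in HEL to 5098 to 5184 CPM in control and 7110 to 7791 CPM in the KD. In the DOT1L KO 5 of the 6 rose and TFRC fell. In the ENL KO 4 rose (GATA1, HBG2, KLF1 and TAL1) and TFRC fell, and in the HEL KD 5 rose and none fell. The summed level of the 3 monocyte markers was 33.2 to 36.0 CPM in control, 292 to 323 CPM in the DOT1L KO and 19.5 to 20.6 CPM in the ENL KO, nearly all of it LYZ, while CD14 held at most 12 fragments and CSF1R at most 15 in any K562 library. The 3 T cell markers summed to 51.5 to 53.1 CPM in control, 15.9 to 20.3 CPM in the DOT1L KO and 61.5 to 72.3 CPM in the ENL KO, nearly all of it CD3D, with CD2 at no more than 1 fragment in K562. In K562 the 3 B cell markers summed to at most 2.51 CPM, with MS4A1 at 0, and the 3 fibroblast markers to at most 2.41 CPM, and the 3 epithelial markers summed to 120 to 121 CPM in control and 78.1 to 85.2 CPM in the DOT1L KO, nearly all of it EPCAM. In HEL the monocyte markers stood at 44.6 to 51.0 CPM in control and 47.3 to 49.9 CPM in the KD. The part of these markers in the results above was not tested, and fewer cells of a type and less RNA per cell cannot be told apart in these bulk samples.

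The genes whose level went most closely with the mean of HLA-B, HLA-C and HLA-E over the 8 K562 libraries were SPHK1 (Pearson's r = 0.964), CEPT1, ORAI1, FBXO17 and PACSIN3 (r = 0.948), out of 10241 genes compared. They lie on chromosomes 17, 1, 12, 19 and 11. These libraries form 3 groups that share their controls, so the values only describe the likeness.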

How the data were processed

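Polyadenylated RNA was sequenced in K562 and HEL, and 12 libraries of 13 deposited columns were used. The shares of genes at 1 CPM with and without alternative contigs were taken over all 13 columns. The authors deposited whole-number counts per gene, fragments in K562 and reads in HEL per the file headers, and exon positions with an exonic length per gene summed over contigs. Per the submitters' processing notes, the tools include fastp 0.13.1, HISAT2 2.1.0 and featureCounts 1.6.1, and the builds hg38 and hg19 are both named; their roles, the strand setting and the treatment of reads that map to several places are not given in the sources used here. The positions in the tables are those of hg38. The libraries keep strand per the labels' protocols, but whether counting used it is not stated, so overlapping and antisense genes are uncertain. The ENL KO labels name no sequencing lane, whereas the K562 control and DOT1L KO labels share 1 lane, so ENL knockout and a possible batch go together and cannot be told apart. The other samples of the series were not analysed here.

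From the counts, genes were kept with filterByExpr (minimum count 10, minimum total 15), scaled with TMM and tested with the quasi-likelihood test of edgeR 4.0.16 in R 4.3.3, all K562 groups in 1 fit and HEL in another, with Benjamini-Hochberg adjustment over all genes and a threshold of 0.05. The SE was taken from the F statistic. The biological coefficient of variation was 6.34% in K562 and 1.83% in HEL. The test was checked on simulated data in which only well-counted genes were changed. That check does not cover changes in genes with as few counts as HLA-B, HLA-C, HLA-E, TAP1 and TAP2 in K562. Intervals of count ratios are exact binomial (Clopper-Pearson, 95%). Bins of 5 Mb held at least 10 tested genes. The members and lists were chosen with earlier results of these data known. Genes that are not reported here were left out of the lists. Named besides the members are DOT1L and MLLT1, per list the 3 genes with the smallest adjusted p in the DOT1L KO and the 2 in HEL among those past the threshold, a fixed set (NLRC5, IRF1, CALR, CANX, PDIA3, PSMB8, PSMB9 and PSMB10), the nearest genes with at least 5 CPM, and the 5 genes most like the mean of HLA-B, HLA-C and HLA-E. Alternatives were other scalings, other filters, DESeq2 1.42.0, a replicate block, all 9 columns, only the groups compared, and each library left out. A protein comparison of the members was planned and not made.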

Additional observations from a re-analysis of the deposited data

Results flagged for a closer look

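HLA-C is listed here because its change differed between the cell lines: the HEL DOT1L KD minus the K562 DOT1L KO was 1.79 on the log2 scale. It fell by 1.94 in K562, from 2.98 to 0.779 CPM, and fell by 0.17 in HEL, from 207 to 184 CPM. B2M is listed for the same reason, with a difference of -0.45. It rose by 0.41 in K562 and had -0.06 in HEL. No group of the members held 4 or more libraries, so single libraries were not tested for standing apart.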

How the results depend on the processing

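Over the alternatives, 322 values of the members within a line kept their direction and their side of the threshold, 12 lost the threshold, 8 gained it and 13 turned direction; the cause was not tested unless stated. A minimum absolute log2 fold change of 1 left 1 called member in the DOT1L KO, 1 in the ENL KO, 1 between the knockouts and 0 in HEL. Of the 37, 27, 38 and 30 called list genes it left 10, 6, 13 and 1. The member left between the knockouts was HLA-B, which passed the filter on low counts only through the DOT1L KO libraries. Its value there is a description with no test. Among the list genes left in K562 are NLRC5, CD74, RAET1G and ULBP3, of which the same holds. The list gene left in HEL was HFE, at a mean of 0.279 CPM in control and 1.21 CPM in the KD. Its control libraries lay below the minimum count of the filter, so HFE was tested only because of its KD libraries. The HEL value of HFE is therefore a description with no test too. Between the knockouts 1 of the 2 members remained called with a stricter filter, with all 9 columns and with only the 2 groups compared, and leaving out 1 library gave 1 to 2. HLA-B was not tested under the stricter filter or with 9 columns, since it fell below the filter. In HEL 1 member was called without a filter and 1 with DESeq2, and 1 to 3 with 1 library left out; B2M passed without control replicate 1 (-0.10, edgeR adjusted p = 0.0342).

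TAP2 in the DOT1L KO also missed the threshold with upper-quartile scaling (adjusted p = 0.0512), library-size scaling (0.0599) and only the 2 groups (0.0502). HLA-B passed in the comparison of the lines without DOT1L KO replicate 2 (-1.22, adjusted p = 0.0397). The neighbours' median of -0.31 was -0.27 with library-size scaling, -0.22 without a filter, -0.28 with a replicate block, -0.29 with 9 columns, -0.35 over 0 to 40 Mb, and -0.36 to -0.26 with 1 library left out.

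Values that were not called and changed sign in the DOT1L KO were those of CALR (0.017 with library-size scaling, 0.031 with the replicate block, 0.0021 with 9 columns) and HCG18 (-0.048 with the block, -0.010 with 9 columns). With 1 library left out, HLA-E ran from -0.48 to 0.030, TAPBP from -0.24 to 0.10, CALR from -0.10 to 0.047, HCG18 from -0.093 to 0.14, PBX2 from -0.05 to 0.16, TRIM27 from -0.10 to 0.019 and WDR46 from -0.33 to 0.18. Between the knockouts TAP2 was -0.0060 without a filter, and with 1 library left out HLA-C ran from -0.22 to 0.54, TAP1 from -0.50 to 0.32 and TAP2 from -0.11 to 0.090. In HEL B2M was 0.016 with upper-quartile scaling and HLA-F ran from -0.15 to 0.73. Replicate numbers were not taken to pair the samples, because the labels do not state it. In K562 the deviations of same-numbered libraries correlated at 0.0885 to 0.683, and those of differently numbered libraries at -0.584 to 0.421. Same-numbered K562 libraries may thus share something, which was not tested beyond the replicate block. In HEL the value was -0.0506, and with 2 libraries a group the other pairs only mirror it. With the replicate block TAP1 passed in the DOT1L KO (-1.32, adjusted p = 0.0295). Low counts limit HLA-B in K562, with at most 14 counts a library, and TAP1 there. HLA-F and HLA-G were at 0 in K562. The part of depth or of multiple mapping in these counts was not tested.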
